A study of Mus musculus with 6 samples.

Results

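The genes described here encode the machinery that shortens poly(A) tails, removes caps and degrades mRNA, in mouse oligodendrocyte precursor cells (mOPCs) depleted of Qk. They were chosen by symbol: the Cnot, Pan2 and Pan3, Btg and Tob, cytoplasmic poly(A)-binding (Pabpc), Zfp36, Pumilio, Dcp and Edc, Xrn, Exosc, Upf and Smg genes, which gave 59 of the 23038 genes in the files. The symbol pattern for Zfp36 also took 5 zinc finger genes that share no more than the letters of the name with it (Zfp362, Zfp365, Zfp366, Zfp367 and Zfp369), so that 54 genes belong to the pathway. These 5 were counted, and are described apart from the rest. Genes of the same complexes that the files list under older symbols fell outside the pattern and are given separately.

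The cells were primary mOPCs isolated by immunopanning from mouse embryos. They were transfected with control siRNAs (siNC, n = 3 libraries) or with siRNAs to Qk (siQk, n = 3 libraries), and poly(A)-selected RNA was sequenced 72 h later. The titles number 3 libraries per group, and the paper describes 3 independent replicates of cultured cells and 3 different Qk siRNAs. Which of these siRNAs each siQk library received is not given, so differences between siRNAs and between cultures cannot be told apart in the spread of siQk.

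Most cytoplasmic mRNAs are degraded from their tail. The Pan2-Pan3 and CCR4-NOT complexes trim the poly(A) tail that the Pabpc proteins cover, after which the cap is removed and Xrn1 digests the body from its 5′ end, or the exosome digests it from its 3′ end. Adaptor proteins such as those of the Zfp36, Pumilio and BTG/Tob families bring CCR4-NOT to chosen transcripts, while the Upf and Smg proteins carry out nonsense-mediated decay. Qki proteins bind RNA themselves and are known in oligodendrocytes for keeping myelin mRNAs stable and for splicing.

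Libraries held 58166490 to 141045937 tags. Levels are given as the deposited RPKM (tags scaled by the exon length of the gene and by the total of the library). Fold changes, siQk over siNC on the log2 scale, come from edgeR's quasi-likelihood test on the tag counts after TMM scaling, and a call needed P below 0.01 together with an FDR (Benjamini-Hochberg, over 12505 tested genes) below 0.1. The TMM factors were 0.899 to 0.987 in siNC and 1.04 to 1.07 in siQk, and RPKM carries no such factor, which is why ratios of RPKM exceed the fitted fold changes. Qk fell to 28.4% of its siNC level, from 193 ± 25.9 to 54.7 ± 20.4 RPKM (SD, n = 3 each). In the marker lists, 3 of 6 OPC genes were called higher, 5 of 7 myelin genes lower and 6 of 8 cell cycle genes higher. Fibroblast and vascular markers summed to 0.304 RPKM or less in every library. In these bulk cultures, fewer cells of a type and less RNA per cell cannot be told apart.

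Of the 59 decay genes, 51 were expressed highly enough to be tested. Qk depletion went with a small rise in part of them: 15 were called higher in siQk, among them Xrn1, Btg2, Pabpc1, Pabpc4, Upf3b and 3 exosome subunits, and 2 were called lower, Pabpc5 and the name-only match Zfp365. The 17 calls are 33.3% of the tested decay genes, close to the 31.0% of all tested genes that were called. Their direction was uneven. Higher calls made up 29.4% of the decay genes against 13.8% of all tested genes, and lower calls 3.92% against 17.2%. Fold changes above 0 were found for 38 of the 51, or 74.5%, against 51.2% of all tested genes. Without the zinc finger genes matched by name, 14 of 47 were called higher and 1 lower.

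The changes were small. Log2 fold changes ran from -0.60 to 0.90, with a median of 0.16 against 0.01 over all tested genes, and no decay gene changed by 1 or more, a size that 901 called genes reached. Among called genes the median absolute log2 fold change was 0.40 for the decay genes and 0.59 for all. Their standard errors were also small, with a median of 0.084 against 0.11 for all tested genes. Scaling by library size only moved the median of all genes to 0.16 and that of the decay genes to 0.31. A change of scaling shifts all genes by nearly the same amount. The distance between the medians, 0.15 under either scaling, was therefore fixed in advance. Higher calls made up 44.6% of all calls with TMM, 55.6% with upper quartile scaling and 68.6% with library size only, and 88.2%, 94.7% and 95.8% of the calls among decay genes.

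**Figure D1:**
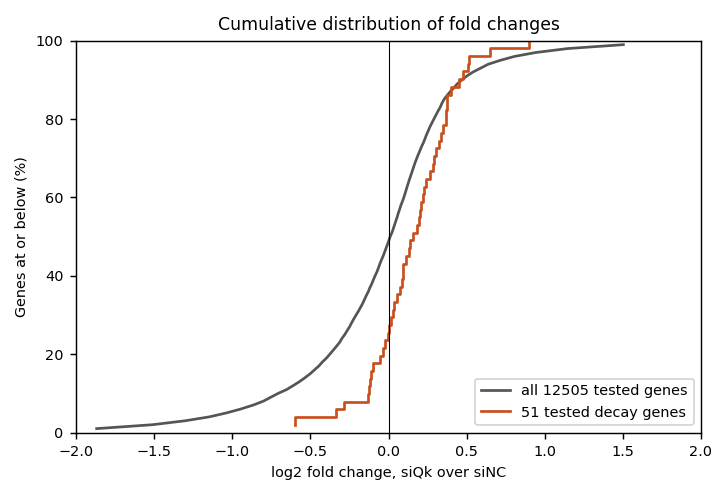
Cumulative share of genes (%, vertical axis) at or below each log2 fold change of siQk over siNC (horizontal axis), for all 12505 tested genes (grey) and the 51 tested decay genes (orange). The orange curve lies to the right of the grey one around the middle, with medians of 0.16 and 0.01, and stops short of the long tails that the grey curve has on both sides.

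The shift was present in each siQk library. After TMM scaling, the median difference of the 51 genes from their siNC mean was 0.17, 0.21 and 0.13 on the log2 scale in siQk replicates 1 to 3. In the siNC libraries it was between -0.023 and 0.021. These libraries make up the siNC mean, so their values lie near 0 by construction and are no separate measure of spread. Over all tested genes the same medians stayed between 0.015 and 0.017 in siQk. The siQk libraries did not overlap with the siNC libraries for 33 of the 51 genes after TMM scaling, which is 64.7% against 54.4% of all tested genes. On deposited RPKM the number was 37, where 58.3% of all tested genes did not overlap. Among the 17 called genes, siQk replicate 3 lay nearest to the siNC mean for 8, replicate 2 for 6 and replicate 1 for 3. Replicate 3 was also the nearest for 49.6% of all called genes. Qk itself was lowest in that library, at 36.2 RPKM against 51.3 and 76.6 RPKM in siQk replicates 1 and 2.

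Other markers moved in the same libraries. The summed level of the 8 cell cycle genes was 74.8 to 90.8 RPKM in siNC and 123 to 212 RPKM in siQk, and that of the 7 myelin genes was 2418 to 4636 RPKM in siNC and 1005 to 1647 RPKM in siQk. The summed level of the 6 OPC genes was 734 to 749.8 RPKM in siNC and 949 to 1136 RPKM in siQk. Of the 6 microglia genes only P2ry12 was tested, and called lower, and C1qa was at 0 in every library. Their sum was 0.718 to 3.30 RPKM in siNC and 0.325 to 0.409 RPKM in siQk. Of the 6 astrocyte genes Gfap and Slc1a2 were called lower. Of the 6 neuron genes Snap25 and Nefl were called higher, and Stmn2 was at 0.0439 RPKM or less. Tubb3 and Rbfox3 both had log2 fold changes of -0.57 and Syt1 had 0.87, and none of these was called. For the astrocyte genes the sum was 154 to 229 RPKM in siNC and 123 to 144 RPKM in siQk. For the neuron genes it was 102 to 172 RPKM in siNC and 81.4 to 120.3 RPKM in siQk. Most of the neuron sum was Tubb3, at 97.6 to 165.8 RPKM in siNC and 68.4 to 104.2 RPKM in siQk. Of 8 immediate early genes, which handling of cells can induce, 7 were tested and 2 were called lower, Fos and Atf3. Of those tested and not called, Nr4a1, Egr1 and Egr2 had log2 fold changes of 0.77, 0.55 and 0.23. Junb and Ier2 had -0.78 and -0.0015. The summed level of the 8 genes was 110.3 to 160.1 RPKM in siNC and 85.1 to 118 RPKM in siQk. The part of these markers in the changes of the decay genes was not tested.

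**Figure D2:**
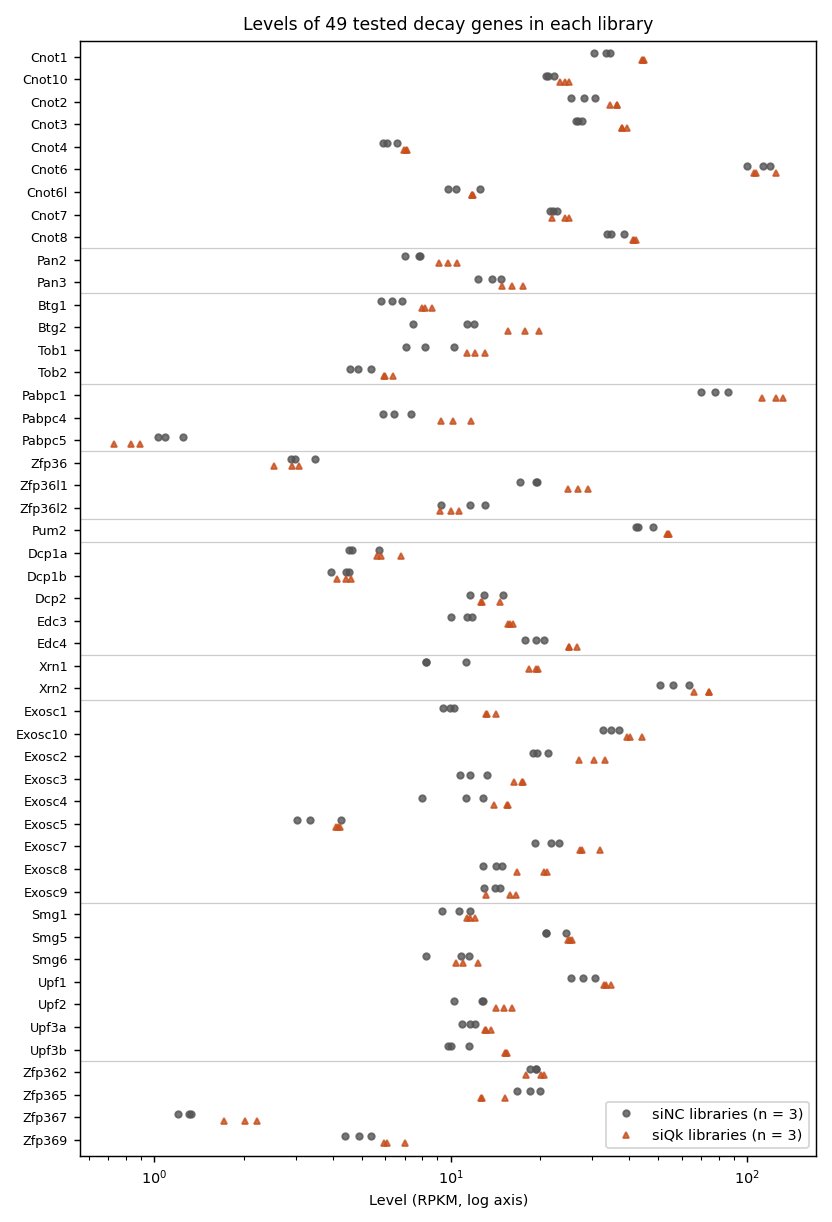
Level of 49 tested decay genes (RPKM, log axis) in each library, with grey circles for the 3 siNC and orange triangles for the 3 siQk libraries, grouped by role. Most genes lie between 3 and 60 RPKM, and for Xrn1, Pabpc1, Edc3 and Upf3b all siQk libraries lie above all siNC libraries, while Pabpc5 and Zfp365 lie below.

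Since Qki proteins recognise the RNA motif ACUAAY, often with a short UAAY element nearby, each gene's longest 3′UTR in GENCODE M21 (assembly GRCm38, also named mm10) was searched for ACTAAC or ACTAAT on the transcribed strand. The companion element TAAC or TAAT was searched within 1 to 20 nt of it on either side, outside the core, which itself ends in these letters. Of 50 tested decay genes with a 3′UTR of at least 50 nt, 18 held the core motif, or 36.0%, against 36.1% of 10805 tested genes. The core with its companion was found in 12, or 24.0%, against 15.1%. Among decay genes called higher, 6 of 15 held the core, against 26.8% of all genes called higher. The 2 decay genes called lower both held it, against 53.3% of all genes called lower. These are matches to letters and not measured binding. The sites below are shown because they lie in the called genes that hold the core with its companion, among them the strongest riser and both genes that fell. They are written 5′ to 3′ on the transcript's strand, with core and companion in capitals. The Edc3 site lies past the end of that gene in RefSeq, chr9:57750163, and so only in the longer GENCODE 3′UTR. The core of the Zfp365 site at chr10:67886103-67886130 starts at nt 2721 of a 2727 nt 3′UTR. RefSeq ends that gene inside this core, at chr10:67886105. Which 3′ ends these cells use was not tested.

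Pabpc5, chrX:119929449-119929477, plus strand: tttcataatACTAACtTAATttcttctat

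Pabpc5, chrX:119929918-119929947, plus strand: tTAACagaaacatttattagtgtACTAACt

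Pabpc5, chrX:119930116-119930144, plus strand: ctccaaaTAATtctttACTAATtcagact

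Zfp365, chr10:67887285-67887313, minus strand: taagattgTAACctgACTAACacttgtag

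Zfp365, chr10:67886103-67886130, minus strand: gaTAATaaagctatatttctgACTAACa

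Xrn1, chr9:96057460-96057488, plus strand: tcatgTAACtattttgtaACTAACtggaa

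Btg2, chr1:134075407-134075436, minus strand: caaaggttACTAATtgtaTAATagcgcttt

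Btg1, chr10:96619741-96619769, plus strand: agaggtgTAATtagaaACTAATcagaagg

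Edc3, chr9:57750423-57750452, plus strand: cagtttACTAATatacatcaTAATgtaaat

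Exosc1, chr19:41922979-41923007, minus strand: ctacaTAATaaacctctcACTAACatgca

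The core was not confined to genes that changed. The 3′UTR of Cnot6l held 8 cores, more than any other decay gene with a searched 3′UTR, and Cnot6l was not called, at 10.9 ± 1.44 RPKM in siNC and at 11.8 ± 0.0212 RPKM in siQk (log2 fold change -0.03, SE 0.092). The core was not found in the longest 3′UTR of Pabpc1, Pabpc4, Upf3b, Exosc2, Exosc3, Cnot1, Cnot3 or Edc4, which were all called higher, nor in that of Zfp36l2. No match says only that these letters are not in this window.

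The CCR4-NOT complex joins catalytic subunits to a scaffold. Cnot1, the scaffold on which the other subunits assemble, was at 30.3, 33.4 and 34.3 RPKM in siNC and at 44.6, 44.1 and 44.3 RPKM in siQk. Its log2 fold change was 0.29 (SE 0.057, FDR 0.00974), and the siQk libraries stood together above all siNC libraries. The call was lost without siQk replicate 1, where the log2 fold change was 0.28. Cnot3, a subunit of the module that contacts regulators, rose from 27.0 ± 0.675 to 38.1 ± 0.859 RPKM (log2 fold change 0.35, SE 0.062, FDR 0.00706). Its partner Cnot2 missed the P threshold at 0.20 (FDR 0.0371), and passed it without siNC replicate 3 at 0.24.

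None of the catalytic subunits of CCR4-NOT was called. Cnot6 and Cnot6l, the nucleases of the CCR4 type, had log2 fold changes of -0.12 (SE 0.085) and -0.03 (SE 0.092). Cnot7 and Cnot8, the nucleases of the CAF1 type, had -0.06 (SE 0.074) and 0.08 (SE 0.055). With these standard errors and libraries that overlapped for Cnot6, Cnot6l and Cnot7, a change of the size seen for Cnot3 was not found in any of the 4. Cnot4, a ubiquitin ligase that binds the complex, and Cnot10, part of a further module, stayed at 0.03 and 0.02. Over the 9 Cnot genes tested, 2 were called higher and none lower, with a median of 0.03. That is 22.2% called, against 31.0% of all tested genes called and 13.8% called higher. Cnot6 had the highest siNC level of the group, 110 ± 10.1 RPKM, but the exon length that the files use for it, 1488 nt, is 0.259 times the length of its GENCODE exons, so that its rank against other genes is uncertain.

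**Figure D3:**
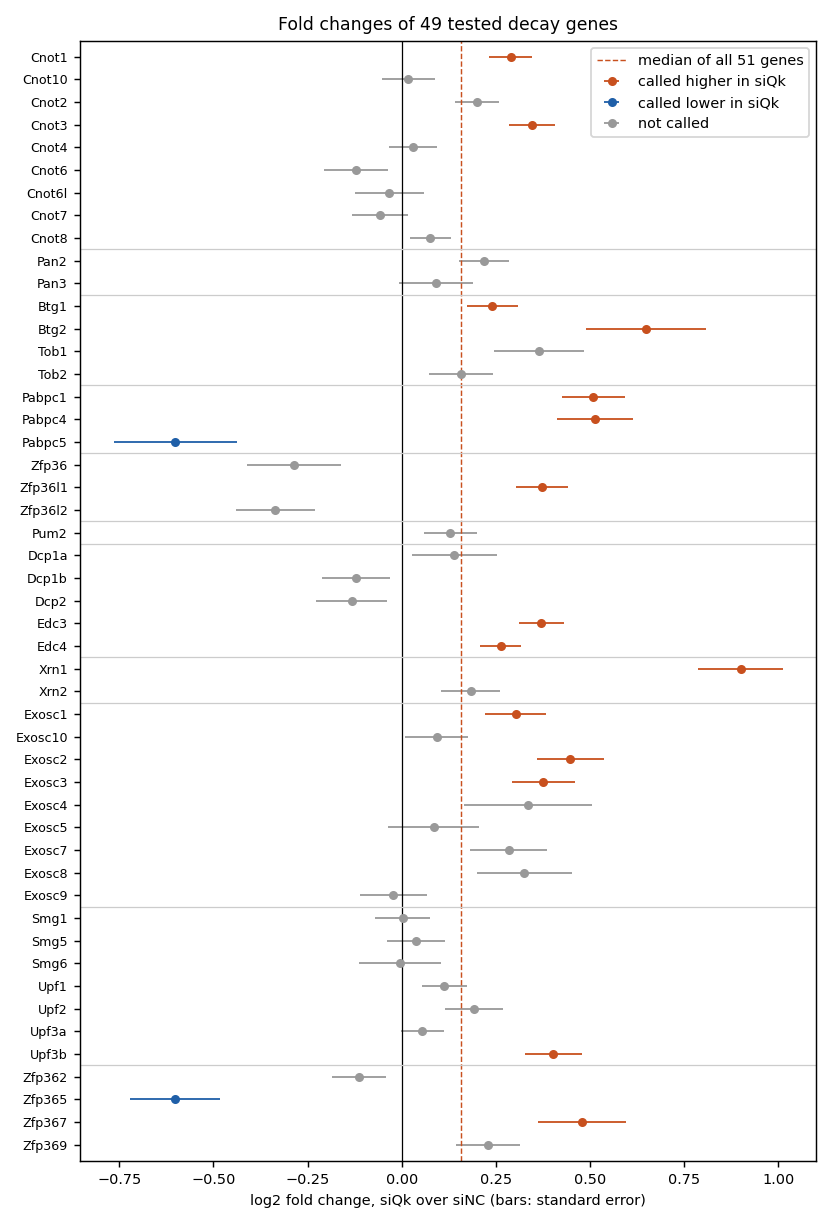
Log2 fold change of siQk over siNC (horizontal axis, bars are standard errors) for 49 tested decay genes, in the same order of roles, with orange for genes called higher, blue for genes called lower and grey for genes not called. Xrn1 lies furthest right at 0.90, Pabpc5 and Zfp365 lie furthest left at -0.60, and the dashed line marks the median of 0.16 over all 51.

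Pan2 and Pan3, the nuclease and the adaptor of the complex that starts tail trimming, were not called. Pan2 was at 7.58 ± 0.481 RPKM in siNC and at 9.80 ± 0.693 RPKM in siQk (log2 fold change 0.22, FDR 0.0390), and Pan3 at 13.6 ± 1.22 and 16.1 ± 1.34 RPKM (0.09, FDR 0.489). Which of them is the more abundant is uncertain, since the exon lengths used are 1.57 times the GENCODE length for Pan2 and 0.831 times for Pan3.

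The BTG/Tob proteins bind the CAF1-type nucleases and restrain cell growth when in excess. Btg2 was at 7.47, 11.3 and 11.9 RPKM in siNC and at 19.8, 17.8 and 15.6 RPKM in siQk. Every siQk library was above every siNC library, with siNC replicate 1 well below the other two, and the coefficient of variation of 23.6% in siNC was the highest of the 51 genes. The log2 fold change of Btg2 was 0.65 (SE 0.16, FDR 0.0209), a fitted ratio of 1.57. The call was lost without siQk replicate 1 (0.56) and without siQk replicate 2 (0.66). Btg1 rose from 6.32 ± 0.517 to 8.28 ± 0.324 RPKM (0.24, FDR 0.0319), close to the P threshold, and lost its call without any 1 of the 6 libraries, with values from 0.21 to 0.27.

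Tob1 and Tob2, which also contact poly(A)-binding proteins, were not called. Tob1 had a log2 fold change of 0.36 (SE 0.12, FDR 0.0504), which passed without siNC replicate 3 at 0.49, and Tob2 had 0.16 (SE 0.085, FDR 0.187). All 4 tested members of the family had fold changes above 0, as did 51.2% of all tested genes, and libraries that did not overlap after TMM scaling, as in 54.4% of all tested genes. Btg3 was at 0.124 RPKM or less and Btg4 at 0.0430 RPKM or less in every library, and neither was tested.

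The Pabpc proteins coat the poly(A) tail and link it to translation. Pabpc1, the major cytoplasmic form, was at 69.8, 77.9 and 86.0 RPKM in siNC and at 125, 132 and 112 RPKM in siQk. The lowest siQk library was above the highest siNC library by a wide margin. With a log2 fold change of 0.51 (SE 0.084, FDR 0.00525, fitted ratio 1.42), Pabpc1 had the largest rise among the decay genes above 50 RPKM in siNC. The others above that level were only Cnot6 and Xrn2. Pabpc4, an inducible form found at lower levels, was at 5.91, 6.42 and 7.33 RPKM in siNC and at 10.2, 11.7 and 9.29 RPKM in siQk, again without overlap (0.51, SE 0.10, FDR 0.00994).

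Pabpc5, an X-linked form without introns in its coding sequence, went the other way at a low level. It was at 1.09, 1.25 and 1.03 RPKM in siNC and at 0.897, 0.730 and 0.835 RPKM in siQk, without overlap. Its log2 fold change was -0.60 (SE 0.16, FDR 0.0284), and its 3′UTR holds the 3 sites printed above. The call was lost when any 1 library but siNC replicate 3 was left out, with values from -0.67 to -0.52 in those 5 settings, and with upper quartile scaling (-0.54) or library size only (-0.45). Pabpc1l, Pabpc2, Pabpc4l and Pabpc6 were not tested, at 0.531 RPKM or less in every library, with Pabpc2 at 0 in all. Pabpc1 has closely similar copies elsewhere in the genome, and how reads shared with them were counted is not given in the sources used here.

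The Zfp36 proteins bind AU-rich elements in 3′UTRs and recruit CCR4-NOT, and their fold changes had both signs. Zfp36l1, the most abundant, was at 17.1, 19.4 and 19.5 RPKM in siNC and at 26.7, 29.0 and 24.8 RPKM in siQk, with all siQk libraries higher (log2 fold change 0.37, SE 0.069, FDR 0.00776). Zfp36l2 was at 9.28, 11.6 and 13.0 RPKM in siNC and at 9.99, 10.6 and 9.19 RPKM in siQk. Those ranges overlapped on RPKM and separated after TMM scaling, with the siQk libraries lower. The log2 fold change of Zfp36l2 was -0.34 (SE 0.11, FDR 0.0443), which missed the P threshold, and passed it without siNC replicate 1 at -0.43. Zfp36 itself, an immediate early gene, was at 3.12 ± 0.317 and 2.84 ± 0.283 RPKM (-0.29, FDR 0.113). Zfp36l3 was at 0 in every library.

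Pum2, a Pumilio protein that binds short sequence elements in 3′UTRs and represses its targets through CCR4-NOT, was at 44.4 ± 3.22 RPKM in siNC and at 54.0 ± 0.458 RPKM in siQk. The libraries did not overlap, and the gene was not called (log2 fold change 0.13, SE 0.071, FDR 0.188). It passed with library size only, at 0.28.

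Decapping is carried out by Dcp2 with its activator Dcp1, on a platform of enhancers. The enhancers Edc3 and Edc4 were called higher and the enzyme Dcp2 was not called, a difference between genes that was not tested. Other decapping factors, listed with the Lsm ring below, had calls in both directions. Edc3 was at 10.03, 11.3 and 11.8 RPKM in siNC and at 16.2, 15.9 and 15.6 RPKM in siQk (log2 fold change 0.37, SE 0.061, FDR 0.00513). Edc4, the scaffold and the most abundant of these genes, was at 17.8, 19.4 and 20.6 RPKM in siNC and at 25.0, 26.7 and 25.1 RPKM in siQk (0.26, SE 0.054, FDR 0.0114). For both, the siQk libraries were close together and above all siNC libraries. Dcp2 was at 13.2 ± 1.68 and 13.3 ± 1.15 RPKM (-0.13, SE 0.095, FDR 0.305), with overlapping libraries, Dcp1a had 0.14 (SE 0.11) and Dcp1b -0.12 (SE 0.091).

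Xrn1, the cytoplasmic exonuclease that degrades decapped mRNA, had the largest change of the 51 genes. It was at 8.27, 8.24 and 11.3 RPKM in siNC and at 19.7, 18.4 and 19.3 RPKM in siQk. All siQk libraries stood far above siNC, where replicate 3 was the highest. The log2 fold change was 0.90 (SE 0.11, FDR 0.00224, fitted ratio 1.87), and it ran from 0.81 to 1.05 over the other settings, all of which kept the call. Its nuclear relative Xrn2, which ends transcription, was more abundant at 56.8 ± 6.51 RPKM in siNC and at 71.5 ± 4.65 RPKM in siQk and was not called (0.18, SE 0.078, FDR 0.107).

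The exosome core is a ring of subunits capped by RNA-binding subunits. Among the cap subunits, Exosc2 was at 19.0, 21.3 and 19.5 RPKM in siNC and at 30.4, 33.2 and 27.1 RPKM in siQk (log2 fold change 0.45, SE 0.089, FDR 0.0102). Exosc3 rose from 11.9 ± 1.23 to 17.1 ± 0.702 RPKM (0.38, SE 0.084, FDR 0.0150) and Exosc1 from 9.86 ± 0.412 to 13.5 ± 0.602 RPKM (0.30, SE 0.081, FDR 0.0270). These are the 3 cap subunits of the complex. In each the libraries did not overlap between groups, as in 58.3% of all tested genes on deposited RPKM. The call of Exosc2 was kept in every other setting. That of Exosc3 was lost without siNC replicate 1 (0.35), siQk replicate 2 (0.37) or siQk replicate 3 (0.35), and that of Exosc1 without any 1 library but siNC replicate 1 (0.25 to 0.32 in those 5 settings).

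None of the ring subunits Exosc4, Exosc5, Exosc7, Exosc8 and Exosc9 was called. Exosc6 was not among the genes that the symbol pattern gave. Exosc4, Exosc7 and Exosc8 had log2 fold changes of 0.34 (SE 0.17), 0.28 (SE 0.10) and 0.33 (SE 0.13), close in size to that of Exosc1 with a wider spread, so that cap and ring are not shown to differ. Exosc5 was at 0.09 and Exosc9 at -0.02. Exosc10, the nuclear catalytic subunit, had the highest deposited level at 34.8 ± 2.10 RPKM in siNC and at 41.2 ± 2.58 RPKM in siQk, and was not called (0.09, SE 0.083). Its rank is uncertain, since the exon length used for Exosc9 is 2.79 times that of its GENCODE exons and that for Exosc5 2.65 times. In all, 3 of 9 Exosc genes were called, all higher, which is 33.3% against 31.0% called and 13.8% called higher of all tested genes. Fold changes above 0 were found for 8 of 9, against 51.2% of all tested genes, and the median was 0.30.

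In nonsense-mediated decay, Upf3b, which links the exon junction complex to Upf2 and Upf1, was the only gene called of 8 tested. It was at 9.74, 11.5 and 10.01 RPKM in siNC and at 15.2, 15.3 and 15.4 RPKM in siQk, the latter within a coefficient of variation well below that of siNC and all higher. Its log2 fold change was 0.40 (SE 0.077, FDR 0.00861), kept in every other setting. Upf1, the helicase at the centre of the pathway, had 0.11 (SE 0.060, FDR 0.177) at 28.0 ± 2.62 and 33.6 ± 1.05 RPKM, Upf2 had 0.19 (SE 0.077, FDR 0.0908) and Upf3a 0.05 (SE 0.057). The kinase Smg1, Smg5 and the endonuclease Smg6 were at 0.00, 0.04 and -0.00. The share of this group that was called, 12.5%, was below the 31.0% called among all tested genes. It was close to the 13.8% of those genes that were called higher.

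Of the zinc finger genes matched by name, Zfp365 was at 20.02, 16.8 and 18.5 RPKM in siNC and at 12.7, 12.6 and 15.2 RPKM in siQk, with all siQk libraries lower (log2 fold change -0.60, SE 0.12, FDR 0.0102). Zfp367 rose at a low level, from 1.28 ± 0.0674 to 1.98 ± 0.252 RPKM (0.48, SE 0.12, FDR 0.0206), and lost its call without any 1 library but siQk replicate 3, with values from 0.39 to 0.48. Zfp362, at 19.1 ± 0.544 RPKM in siNC, had a log2 fold change of -0.11, Zfp369 had 0.23 and neither was called. Zfp366 was at 0.0115 RPKM or less and was not tested.

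Many decay genes have a close relative with an overlapping role, and the balance within such pairs was measured, here for 8 of 9 pairs compared, as the share of the first gene in the summed RPKM of the pair, which no library scaling alters. Zfp36l1 made up 64.9%, 62.4% and 60.0% of Zfp36l1 plus Zfp36l2 in siNC and 72.8%, 73.2% and 72.9% in siQk. The siQk libraries were close together above all siNC libraries, and the mean differed by 10.6 percentage points. Btg1 had a share of Btg1 plus Btg2 of 38.6 ± 4.36% in siNC and 31.9 ± 2.20% in siQk. Upf3a was at 52.5 ± 1.34% of the Upf3 pair in siNC and 46.5 ± 0.764% in siQk. The exon length used is 2.53 times the GENCODE length for Upf3a and 1.64 times for Upf3b. The level of the share is therefore less certain than its difference. The same holds below for Dcp1a (1.31 times) with Dcp1b (0.693 times) and for Pabpc1 (1.73 times) with Pabpc4 (0.882 times).

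The libraries also did not overlap for Dcp1a (53.5 ± 2.61% and 58.0 ± 1.39%) and Tob1 (63.0 ± 3.30% and 66.5 ± 0.780%). In these 5 pairs the two-sided exact permutation test gave p = 0.1, the smallest that 3 libraries against 3 allow, and 0.15 after adjustment over the 9 pairs, so that no pair could pass. The libraries overlapped for Cnot7 with Cnot8 (exact p = 0.3), Cnot6 with Cnot6l (0.6) and Pabpc1 with Pabpc4 (0.9). In the latter pair Pabpc1 was at 92.24 ± 0.122% in siNC and 92.22 ± 0.308% in siQk, both genes having risen by 0.51.

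**Figure D4:**
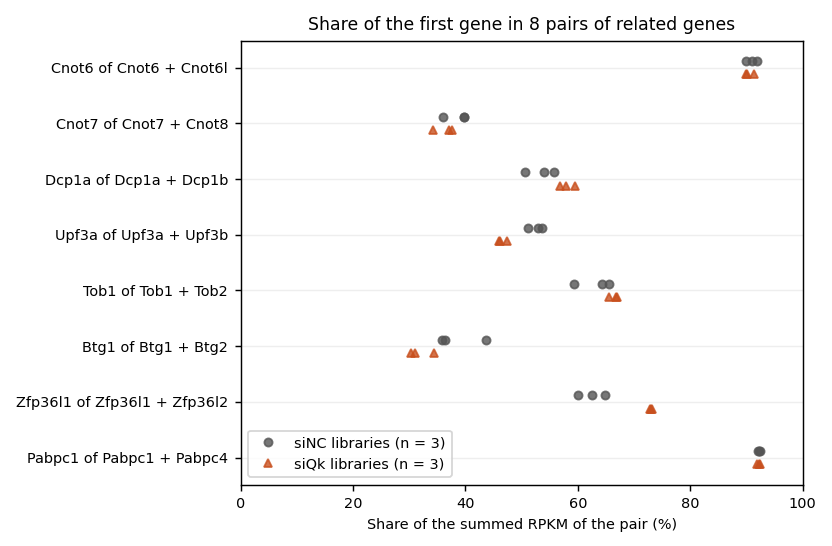
Share of the first gene in the summed RPKM of each of 8 pairs of related genes (%, horizontal axis), with grey circles for the 3 siNC and orange triangles for the 3 siQk libraries. The share of Zfp36l1 moved most, from 62.4% to 73.0% on average, while Pabpc1 averaged 92.2% of Pabpc1 plus Pabpc4.

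Genes of the pathway outside the symbol pattern were taken from lists by function. Of 100 such genes, 94 were tested and 23 called, or 24.5%, against 31.0% of all tested genes. Higher calls were 10, or 10.6% against 13.8%, lower calls were 13, or 13.8% against 17.2%, and the median log2 fold change was 0.06 against 0.01. The lists that follow are small, and their counts are to be read against the same shares. Among recruiting RNA-binding proteins 3 were called higher and 4 lower of 15 tested. Cpeb2, which binds cytoplasmic polyadenylation elements, fell from 16.6, 17.0 and 16.1 RPKM in siNC to 8.70, 9.11 and 10.2 RPKM in siQk (log2 fold change -0.98, SE 0.086, FDR 0.000884). In the list of the Lsm ring, Pat1 and Ddx6, 2 were called higher and 2 lower of 17, and the P-body protein Lsm14a fell from 80.8, 92.3 and 94.6 RPKM to 64.8, 66.7 and 62.8 RPKM (-0.61, SE 0.058, FDR 0.00101). In both genes all siQk libraries were below all siNC libraries.

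In the list of exosome nucleases, Ski proteins and nuclear cofactors, 2 were called higher and 3 lower of 18, among the latter Mphosph6, a nuclear cofactor of the exosome (-0.58, SE 0.092). Of 10 tested miRNA silencing genes 1 was called, Ago3 (listed as Eif2c3), which fell by 0.82 on the log2 scale. Among exon junction complex and release factors 2 of 15 were called, both higher, with Gspt2 at 0.48. Of 8 other deadenylases and CCR4-NOT partners 1 was called, the poly(A) ribonuclease Parn at -0.24, and of 11 uridylation and tail partners 1 was called higher and 2 lower, including Paip2b, an inhibitor of poly(A)-binding protein, at -0.43. Subunits of the same complexes listed under older symbols gave 1 call of 4. Cnot11 (listed as D1Bwg0212e) rose from 12.8 ± 1.44 to 18.0 ± 0.804 RPKM (0.34, FDR 0.0184), while Cnot9 (Rqcd1) was at 0.07, Smg8 (1200011M11Rik) at 0.03 and Smg9 (1500002O20Rik) at -0.08.

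**Figure D5:**
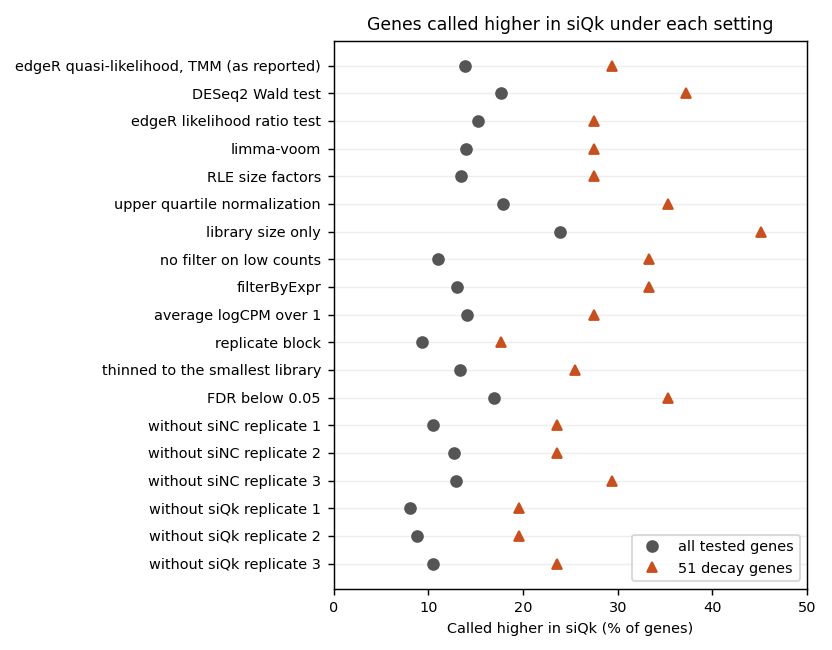
Share of genes called higher in siQk (%, horizontal axis) among all tested genes (grey circles) and the 51 decay genes (orange triangles), under the reported test and 18 other settings. The share among decay genes is the larger under each setting, from 17.6% against 9.32% with the replicate number as a block to 45.1% against 23.9% with library size only.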

How the data were processed

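For each of 6 mOPC libraries the authors deposited, per gene, a tag number, which is an expected count that can carry decimals (23.1% to 26.2% of genes), without normalization. The deposited RPKM equals this number scaled by exon length and library total, as recomputing it showed, and the exon length was deposited beside it. Reads were aligned to mm10 with OLego and quantified with Quantas by the authors, whose versions and annotation are not given in the sources used here. The library kit does not mark strand, so that reads of a gene and of an antisense partner cannot be told apart.

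Expected counts were rounded. Genes with an average logCPM over 0 were tested with edgeR 4.0.16 (limma 3.58.1, R 4.3.3), with TMM factors and the group as the only term. The standard error was taken as the absolute log2 fold change over the square root of F. The steps were tested on simulated data. Libraries of the same group differed by more than sampling noise (chi-square per degree of freedom of 38.0 or more), so each counted as 1 replicate. Depth was 58166490 to 141045937 tags. The p-values measure the spread between these libraries. The alternatives included DESeq2 1.42.0, other scalings and filters, thinning, the replicate block and leaving out each library.

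Genes, lists and motifs were chosen with earlier results of these data known. Per-library values were given by rule for called genes without overlap and with an average logCPM over 3, up to 10 per direction, for the highest level of each role and for the top called gene of each further list. Genes named beyond this rule were chosen for their role or after their values were seen. Single values of 2 tested genes are not reported here, and counts and medians include them.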

Additional observations from a re-analysis of the deposited data

How the results depend on the processing

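Of the 17 called decay genes, 9 kept their call and direction under all 18 alternatives (Cnot3, Edc3, Exosc2, Pabpc1, Pabpc4, Upf3b, Xrn1, Zfp365 and Zfp36l1). The other 8 lost it under at least 1, namely Btg1 under 12, Pabpc5 under 8, Exosc1 under 7, Zfp367 under 6, Btg2 and Exosc3 under 3 each, Cnot1 under 2 and Edc4 under 1. The replicate block was among these settings for each of them but Exosc3. No called gene changed direction. The number called was 17. It was 24 with library size only, 22 with DESeq2, 21 at an FDR below 0.05 with no cutoff on P, 10 in the fit with the replicate block and 11 to 17 with 1 library left out (11 without siQk replicate 1 or siQk replicate 2). Higher calls, 15 as reported, became 23 with library size only, 9 with the block and 10 to 15 with 1 library left out. Lower calls, 2 as reported, became 1 with upper quartile scaling, library size only, the block or without the zinc finger genes, and 1 to 2 with 1 library left out. The median log2 fold change was 0.22 with upper quartile scaling, 0.31 with library size only and 0.14 to 0.21 with 1 library left out (0.21 without siNC replicate 3). The other pathway genes called, 23 as reported, became 14 with the block and 13 to 23 with 1 library left out (13 without siQk replicate 1 and 14 without siQk replicate 2). The cause of these moves was not tested.

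Same-numbered libraries did not deviate together (correlations of -0.053, -0.15 and -0.34). With 3 libraries per group and siRNAs that may differ between siQk libraries, this cannot exclude that the replicate numbers mark shared cultures. Over all genes the block left 2796 calls of 3879, while DESeq2 made 4894 and leaving out siQk replicate 1 left 2478.

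Of 882 values of single genes under alternatives, 785 kept direction and side of the threshold, 42 lost the call, 22 gained it and 33 changed sign, each in a gene that was not called. With library size only the sign changed for Cnot6 (0.027), Cnot6l (0.12), Cnot7 (0.095), Dcp1b (0.027), Dcp2 (0.017), Exosc9 (0.13), Smg6 (0.14) and Zfp362 (0.037), and with upper quartile scaling for Cnot6l (0.028), Cnot7 (0.0029), Exosc9 (0.039) and Smg6 (0.055). Smg1 was at -0.0052 with DESeq2 and -0.0050 with its size factors. Without a filter Exosc9 was at 0.0017 and Smg6 at 0.018, and Smg6 was at 0.0092 with filterByExpr and 0.00037 with the block. With 1 library left out, the ranges that crossed 0 were -0.017 to 0.085 for Cnot10, -0.0051 to 0.066 for Cnot4, -0.091 to 0.066 for Cnot6l, -0.027 to 0.21 for Exosc5, -0.091 to 0.067 for Exosc9, -0.039 to 0.066 for Smg1, -0.025 to 0.10 for Smg5 and -0.10 to 0.062 for Smg6. For the share of paralog pair Pabpc1/Pabpc4 the difference was -0.025 percentage points as reported and -0.15 to 0.15 with 1 library left out. Thinning all libraries to the depth of the smallest left 15 calls against 17.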
